A study of Mus musculus with 4 samples.

Results

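Cohesin is a ring-shaped protein complex that holds sister chromatids together after DNA replication and extrudes chromatin loops between CTCF sites. Its core consists of the ATPases SMC1 and SMC3, a kleisin that closes the ring, and a STAG protein, while other factors load it onto chromatin or take it off. Germ cells build a meiotic form in which the kleisin is REC8, SMC1 can be SMC1B and the STAG protein is STAG3. In T cells the mitotic form is the usual one, and it is known there for shaping the contacts of enhancers with promoters as well as for cell division.

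Here 10 cohesin genes were read in splenic regulatory T (Treg) cells, out of 24087 genes measured by RNA-seq. They were the meiotic subunits Rec8, Smc1b and Stag3, the mitotic or shared subunits Rad21, Smc1a, Smc3, Stag1 and Stag2, the loader Nipbl and the release factor Wapl, found by gene symbol. All 10 were listed and all were above 0 in every library. Rec8 was selected on its difference between genotypes in these same 4 libraries, so its values are a description and carry no test. The other 9 genes were chosen by function.

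The cells were CD3+CD4+YFP+ splenocytes of C57BL/6 mice. The KO group was Foxp3Cre-YFPSetd2f/f and the CTRL group was littermate Foxp3Cre-YFPSetd2f/+, with 2 libraries per genotype, and each library held cells pooled from 2 mice by the series' design text (2 or 3 by the study's methods). Setd2 encodes the methyltransferase that trimethylates histone H3 on lysine 36 along transcribed genes. Cre came from the Foxp3 gene, so deletion was aimed at Foxp3-expressing cells, and CTRL cells also carried Cre-YFP and 1 floxed Setd2 allele. The study's methods describe its mice in general as age-matched littermates of both sexes, and give a general age range in weeks. The labels give no age or sex for these pools. The deposited unit was FPKM, a fragment count scaled to gene length and library size, which allows levels to be compared between genes. KO and CTRL were compared by limma on log2(FPKM + 1) over the 11399 genes that reached an FPKM of 1 in 2 or more libraries, and p was adjusted over all of them with a threshold of 0.05. With 2 libraries per group, p-values measure the spread between these pools of mice only, and fewer cells expressing a gene cannot be told apart from less RNA per cell.

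Pairs of values are given throughout with replicate 1 (CTRL 1, KO 1) before replicate 2 (CTRL 2, KO 2). The libraries held 30701343 to 33353103 reads as recovered from the FPKM steps. Summed FPKM of 6 Treg cell markers was 1107 and 1183 in CTRL and 1214 and 1126 in KO. Its largest part was Ctla4, at 546 and 542 in CTRL and 656 and 534 in KO. Foxp3 was at 121 and 140 FPKM in CTRL and 112 and 119 in KO. Both KO libraries were below both CTRL libraries in 3 of the 6 (Foxp3, Il2ra and Ikzf4), against 35.5% of all genes. They were above in 1 (Ikzf2), against 29%, and none of the 6 passed the threshold. Setd2 was at 23.4 and 25.3 FPKM in CTRL and 21.3 and 19.5 in KO, a log2 difference of -0.24 with an adjusted p of 0.0970 by limma. That value sums reads over the whole gene, and the exons between the loxP sites were not read apart. Transcripts of Xist and of Y-linked genes were present in all 4 libraries, so each pool held RNA of both sexes. Over all genes, 9.75% passed the threshold, with 5.1% higher and 4.65% lower in KO, and the median log2 difference was -0.022.

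The stretches just upstream of Rec8, Smc1a and Smc1b are shown because they set the meiotic kleisin gene and the meiotic SMC1 gene beside a mitotic counterpart. The sequences are from RefSeq on GRCm38.p6, run 5′ to 3′ on the strand of the gene, and end before every annotated start of the gene. They lie at chr14:55617916-55618001 on the plus strand for Rec8, chrX:152016178-152016427 on the plus strand for Smc1a and chr15:85131965-85132207 on the minus strand for Smc1b. Capitals mark matches to 5 motifs searched on both strands, the E-box CACGTG, the E2F core TTCCCGC, the CCAAT box CCAAT, the interferon-type TTTCNNTTT and the Sp1-type GGGCGG.
Rec8: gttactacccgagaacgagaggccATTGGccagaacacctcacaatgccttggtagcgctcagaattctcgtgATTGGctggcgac
Smc1a: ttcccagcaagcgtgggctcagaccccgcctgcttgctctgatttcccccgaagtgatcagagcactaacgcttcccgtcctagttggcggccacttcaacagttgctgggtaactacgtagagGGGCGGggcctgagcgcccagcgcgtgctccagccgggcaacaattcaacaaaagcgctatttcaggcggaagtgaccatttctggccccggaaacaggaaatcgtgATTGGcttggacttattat
Smc1b: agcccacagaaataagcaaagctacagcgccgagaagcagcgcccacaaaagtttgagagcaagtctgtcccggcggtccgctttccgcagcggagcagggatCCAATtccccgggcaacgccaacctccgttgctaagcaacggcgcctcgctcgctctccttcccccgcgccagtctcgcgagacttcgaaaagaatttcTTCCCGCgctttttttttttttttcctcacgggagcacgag

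In the Rec8 stretch the capitals are 2 CCAAT boxes, both on the reverse strand. The whole window of 250 bases before the table's start of Rec8 held 3 of them, and 2.79% of the 32851 mouse promoters in the table held 3 or more in a window of that length. It held no match to the other 4 motifs. Its CG pairs numbered 10, against 16 to 32 in the other cohesin windows read below. The median over all promoters was 6, and 37.8% of them held 10 or more. The last 129 bases of the Rec8 window lie inside the gene as GENCODE vM21 draws it, and hold the CCAAT box that is not in the stretch shown. The Smc1a stretch held a CCAAT box and an Sp1-type match, and the Smc1b stretch held a CCAAT box and an E2F core.

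Windows of 7 of the 10 genes were read, without Rad21, Stag2 and Nipbl. Those of Stag1 and Stag3 lie with all 250 bases inside the genes as GENCODE vM21 draws them. That of Smc1b lies inside its gene with 7 bases. A CCAAT box was found in 6 of the 7, all but Smc3, and in 33.8% of all promoters. An E2F core was found for Smc1b and Stag1 and in 3.82% of all promoters. An E-box was found for Stag3 and in 6.02% of all promoters. An Sp1-type match was found for Smc1a, Smc3, Stag1 and Wapl and in 32.7% of all promoters. The interferon-type motif was found in none of the 7 and in 9.37% of all promoters. These are matches of letters and say nothing of what binds there.

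Among the kleisins, Rad21 was the most abundant of all 10 cohesin genes and Rec8 was the only meiotic subunit above 1 FPKM. The gene Rec8 lies at chr14:55618037-55625395 on the plus strand and overlaps no other annotated gene. Rec8 had an FPKM of 7.89 and 8.89 in the CTRL libraries and of 3.53 and 1.61 in the KO libraries. Both KO libraries were below both CTRL libraries, and the KO libraries were farther apart than the CTRL libraries. The KO mean was 30.6% of the CTRL mean, with means of 8.39 ± 0.708 FPKM in CTRL and 2.57 ± 1.36 in KO (SD, n = 2), and the fitted log2 difference was -1.45 (SE 0.27).

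Rec8 had the 8th lowest log2 difference of the 11399 genes tested. Next to it in that order stood Prrt1 at -1.46 and Malat1 at -1.45 below, and Traj44 at -1.36 and Tspan31 at -1.35 above. Malat1 is a nuclear long non-coding RNA, and Prrt1 is described with the genes nearest to Rec8. The order rests on the values that selected Rec8.

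**Figure D1:**
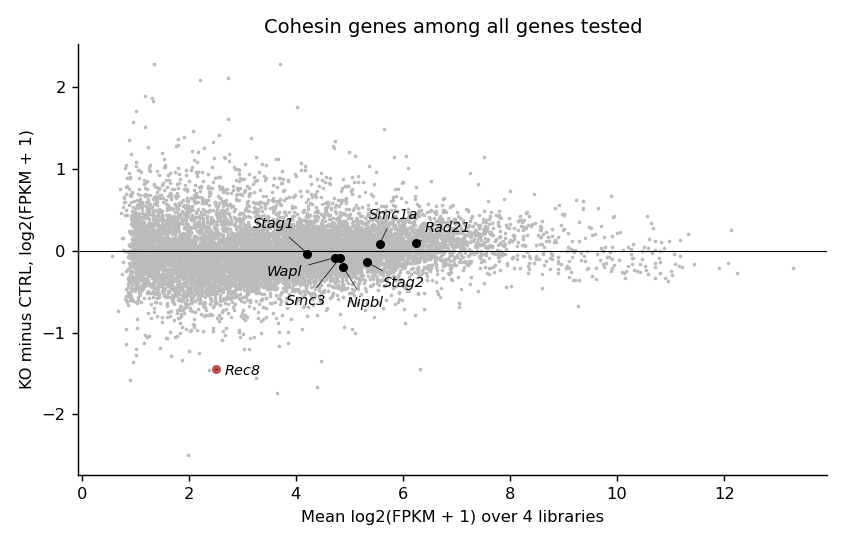
Difference between KO and CTRL (y axis, log2(FPKM + 1)) against mean level (x axis, mean log2(FPKM + 1) over 4 libraries) for the 11399 genes tested, in grey. Rec8, in red, lies at -1.45 near the lower edge of the cloud, and the other 7 cohesin genes tested, in black, lie between -0.20 and 0.09.

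The reads behind the Rec8 values were recovered from the whole-number steps of the deposited values, and numbered 532 and 633 in CTRL 1 and CTRL 2 and 256 and 117 in KO 1 and KO 2. Exact Poisson 95% intervals, which cover counting error only, ran from 3.11 to 3.99 FPKM in KO 1 and from 1.33 to 1.92 in KO 2. They ran from 7.24 to 8.59 FPKM in CTRL 1 and from 8.21 to 9.61 in CTRL 2. The 2 KO libraries thus differed by more than counting error, and the 2 CTRL libraries had overlapping intervals. On the log2(FPKM + 1) scale the gap between the KO libraries was 0.80 for Rec8, against a median of 0.091 over all genes, and 1.98% of genes had a gap at least as large. Without KO 2 the log2 difference of Rec8 was -1.05, and without KO 1 it was -1.85.

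Rad21 encodes the mitotic kleisin (chr15:51962240-51991747, minus strand) and overlaps no other annotated gene. Rad21 had an FPKM of 77.2 and 67.3 in the CTRL libraries and of 78.0 and 76.1 in the KO libraries. The groups overlapped, with CTRL 1 between the KO libraries. Its log2 difference was 0.09 (SE 0.08, 95% interval -0.11 to 0.30) and did not pass the threshold (limma adjusted p = 0.450).

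Of the summed FPKM of both kleisins, Rec8 made up 9.27% and 11.7% in CTRL 1 and CTRL 2 and 4.33% and 2.07% in KO 1 and KO 2. The share is a description only, since it follows from the values on which Rec8 was selected. The sum itself was 85.1 and 76.2 FPKM in CTRL and 81.6 and 77.7 in KO, so that the groups overlapped in total kleisin RNA. By recovered reads, which are not scaled for the greater length of Rad21, the mean share of Rec8 was 6.25% in CTRL and 1.85% in KO.

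**Figure D2:**
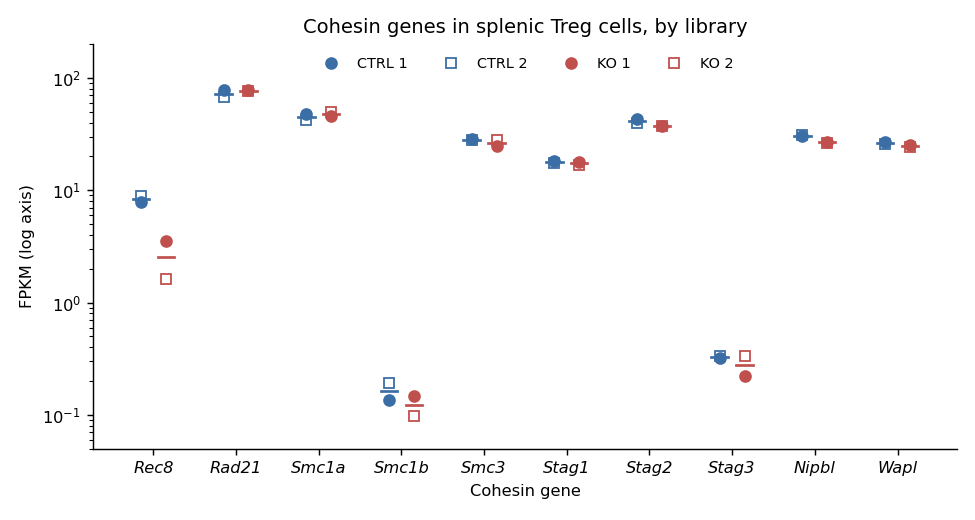
FPKM (y axis, log scale) of the 10 cohesin genes in each library, CTRL in blue and KO in red, with replicate 1 filled and replicate 2 open, and a short line at the mean of each group. Rec8 is the gene in which the genotypes stand farthest apart among those above 1 FPKM, Smc1b and Stag3 lie below 0.4 FPKM, and the mitotic subunits and regulators lie between 16.9 and 78.0 FPKM.

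The other meiotic subunits were near the limit of detection in both genotypes. Smc1b, which replaces Smc1a in meiotic rings (chr15:85064689-85131964, minus strand), was at 0.136 and 0.193 FPKM in CTRL and 0.147 and 0.0977 in KO, from 14 to 27 reads per library. Stag3, the meiotic STAG protein (chr5:138280240-138312393, plus strand), was at 0.324 and 0.335 FPKM in CTRL and 0.221 and 0.333 in KO, from 33 to 50 reads per library. In both genes the groups overlapped, and neither passed the filter on low values, so neither was tested.

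For Smc1b the counting interval ran from 0.127 to 0.281 FPKM in CTRL 2, its highest library, and from 0.0534 to 0.164 in KO 2, its lowest. For Stag3 it ran from 0.248 to 0.442 in CTRL 2 and from 0.152 to 0.310 in KO 1. These intervals overlap within each gene, and a difference between genotypes was not detectable at this depth. Smc1b made up 0.197% to 0.452% of SMC1 FPKM, and Stag3 made up 0.399% to 0.609% of STAG FPKM, over the 4 libraries. In both genotypes Rec8 was the only meiotic subunit with more than 1% of the RNA of its role. Smc1b overlaps Gm10923 on the other strand, and use of strand in counting was not given in the sources used here.

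Of the 9 cohesin genes other than Rec8, 7 passed the filter on low values and 0 passed the threshold by limma, against 9.75% of all genes tested. By unadjusted p, 1 of them, Nipbl, was under 0.05, against 34.7% of all genes, and limma-voom on the recovered reads also called 0. Their log2 differences ran from -0.20 to 0.09 with a median of -0.084. In 4 of the 7 (Smc3, Stag2, Nipbl and Wapl) each KO library was under each CTRL library, and in none was each above. Over all genes tested, the groups did not overlap in 64.5%, with KO below CTRL in 35.5% and above it in 29%.

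The SMC subunits are the ATPase arms of the ring. Smc1a (chrX:152016428-152062694, plus strand) had an FPKM of 47.8 and 42.5 in the CTRL libraries and of 46.1 and 49.6 in the KO libraries. The groups overlapped, and the log2 difference was 0.08 (95% interval -0.12 to 0.29, limma adjusted p = 0.504). Smc1a is X-linked and overlaps Gm15267 on the other strand. Xist, transcribed from the inactive X of females, was at 29.1 and 37.3 FPKM in CTRL and 23.4 and 23.3 in KO, and the part of a differing mix of sexes in the values of X-linked genes was not tested.

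Smc3 (chr19:53600398-53645833, plus strand) had an FPKM of 28.3 and 28.1 in the CTRL libraries and of 24.9 and 28.03 in the KO libraries. KO 2 lay only just below the CTRL libraries, and KO 1 was the lowest. The log2 difference was -0.09 (95% interval -0.28 to 0.10, limma adjusted p = 0.446). Without KO 1 it was -0.01, and without KO 2 it was -0.17.

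The STAG proteins bind the kleisin and contact CTCF. Stag2 (chrX:42149317-42277185, plus strand) had an FPKM of 42.9 and 39.6 in the CTRL libraries and of 37.2 and 37.6 in the KO libraries. Both KO libraries were below both CTRL libraries, yet the log2 difference of -0.14 (95% interval -0.30 to 0.02) did not pass the threshold (limma adjusted p = 0.196). Stag2 is X-linked like Smc1a, which did not show this order, and overlaps Gm37564 on the other strand.

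Stag1 (chr9:100597798-100959375, plus strand) had an FPKM of 18.1 and 17.6 in the CTRL libraries and of 17.98 and 16.9 in the KO libraries. The groups overlapped, with a log2 difference of -0.03 (95% interval -0.20 to 0.14, limma adjusted p = 0.760) whose sign turned in 2 of 15 alternative settings. Stag1 shares its strand with Gm37204, Gm38297 and Gm3081 and overlaps Gm47803 and Gm8661 on the other, so reads of these could be divided between them. Of all STAG FPKM, Stag2 made up 67.1% to 70.0% and Stag1 29.5% to 32.5% over the 4 libraries.

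Nipbl loads cohesin onto DNA and drives loop extrusion (chr15:8290617-8444463, minus strand). Nipbl had an FPKM of 30.4 and 30.9 in the CTRL libraries and of 27.0 and 26.1 in the KO libraries. The KO libraries were both under the CTRL libraries, by more than the gap within either group. The log2 difference was -0.20 (SE 0.06, 95% interval -0.34 to -0.05) with an unadjusted p of 0.0177 and an adjusted p of 0.0830 by limma, so it missed the threshold. With each library's trend with exon length removed it was -0.12 and the adjusted p was 0.221.

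Wapl opens the ring and releases cohesin (chr14:34673928-34747983, plus strand). Wapl had an FPKM of 26.6 and 26.0 in the CTRL libraries and of 25.04 and 24.4 in the KO libraries. Each KO library was under each CTRL library, and the log2 difference was -0.08 (95% interval -0.23 to 0.06, limma adjusted p = 0.351). Neither Nipbl, Wapl, Smc3, Rad21 nor Rec8 overlaps another annotated gene, and none of the 10 genes shared a stretch of 100 bases with another gene's transcripts.

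**Figure D3:**
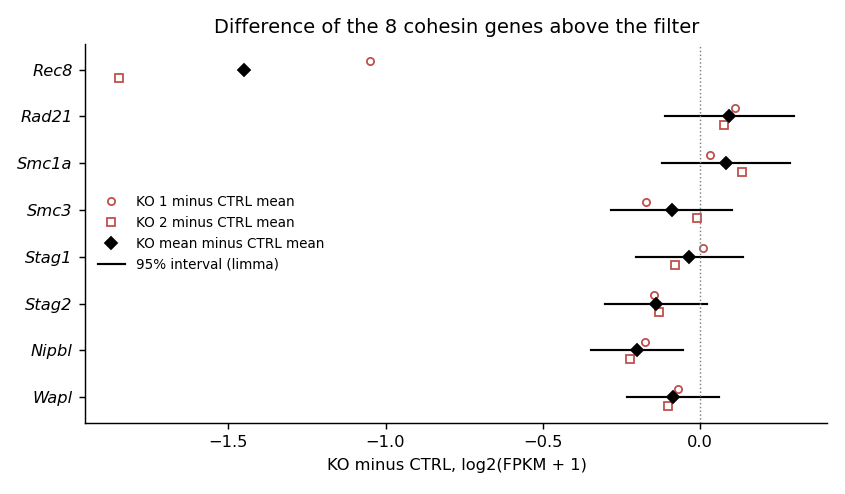
KO minus CTRL on the log2(FPKM + 1) scale (x axis) for the 8 cohesin genes above the filter, with each KO library against the CTRL mean (open symbols), the mean difference (diamonds) and limma's 95% interval (lines, not drawn for Rec8). The intervals of 6 of the other 7 genes include 0, and that of Nipbl, -0.34 to -0.05, does not.

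In order of mean CTRL level per length the genes ran Rad21, Smc1a, Stag2, Nipbl, Smc3, Wapl, Stag1, Rec8, Stag3 and Smc1b. Neighbours in this order had libraries that did not overlap in CTRL, except Smc1a and Stag2. In KO the order by mean was the same, and the libraries of Nipbl and Smc3 and of Smc3 and Wapl overlapped.

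The factors that regulate cohesin were read next, as a list of 20 genes of which 19 were in the file and 17 passed the filter. Of the 17, 3 rose in KO (against 5.1% of all genes) and none fell (against 4.65%), and the median log2 difference was -0.019. By unadjusted p, 12 of the 17 were under 0.05, against 34.7% of all genes, and KO was clear of CTRL in 13, above it in 6 and below it in 7 (over all genes 64.5%, 29% and 35.5%). The 3 were Cdca5, Espl1 and Sgo1. Cdca5 encodes sororin, which guards cohesin from release after replication, and was at 6.56 and 5.74 FPKM in CTRL and 13.3 and 12.5 in KO, a log2 difference of 0.96 (limma adjusted p = 0.0306). In both KO libraries it was clear of both CTRL libraries.

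Espl1 encodes separase, the protease that cuts the kleisin at anaphase. Espl1 was at 3.56 and 2.63 FPKM in CTRL and 6.07 and 5.74 in KO, a log2 difference of 0.76 (limma adjusted p = 0.0405). Sgo1 encodes shugoshin, which protects cohesin at the centromere. Sgo1 was at 4.27 and 4.02 FPKM in CTRL and 6.71 and 6.56 in KO, a log2 difference of 0.57 (limma adjusted p = 0.0351). In all 3 genes the groups did not overlap.

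At the other end of the regulators stood Ddx11, a helicase that acts in cohesion during replication, and Naa50, an acetyltransferase needed for cohesion. Ddx11 was at 7.49 and 7.21 FPKM in CTRL and 5.67 and 5.88 in KO, a log2 difference of -0.30 (limma adjusted p = 0.0679). Naa50 was at 17.5 and 15.1 FPKM in CTRL and 12.95 and 13.7 in KO, a log2 difference of -0.27 (limma adjusted p = 0.107). Neither passed the threshold, though KO lay below CTRL in both.

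Esco2 and Mau2 were singled out after their values were seen. Esco2, the acetyltransferase that locks cohesin on DNA in S phase, was at 4.94 and 3.04 FPKM in CTRL and 6.90 and 7.31 in KO (log2 difference 0.73, limma adjusted p = 0.0728) and did not pass the threshold. Mau2, the partner of Nipbl in the loader, was at 27.9 and 29.2 FPKM in CTRL and 23.9 and 23.6 in KO, a log2 difference of -0.26 (limma adjusted p = 0.0574), beside the -0.20 of Nipbl. Rad21l, a further meiotic kleisin, was at 0 in all 4 libraries.

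The 3 regulators that rose are genes of dividing cells, and 17 proliferation markers were read beside them. Of the 17, 13 rose in KO (against 5.1% of all genes) and none fell (against 4.65%), with a median log2 difference of 0.84, and in all 17 both KO libraries were above both CTRL libraries (against 29%). Summed FPKM of the list was 514 and 428 in CTRL and 725 and 712 in KO. Mki67, which encodes the proliferation antigen Ki-67, was at 31.8 and 24.3 FPKM in CTRL and 45.1 and 44.7 in KO, a log2 difference of 0.67 (limma adjusted p = 0.0433).

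The others that rose were Top2a, Ccnb2, Ccna2, Cdk1, Birc5, Aurka, Aurkb, Plk1, Mcm2, Mcm3, Mcm5 and Rrm2, which encode a topoisomerase, cyclins, mitotic kinases and their partners, and replication enzymes. Their log2 differences ran from 0.38 for Mcm2 to 1.12 for Aurka. The 7 tested cohesin genes other than Rec8 stayed within -0.20 to 0.09 in the same libraries. The difference between these lists was not tested. With any 1 of the 4 libraries left out, none of the proliferation markers or regulators was past the threshold, and at most 1 gene of all those tested was called in each direction. Without limma's variance trend 8 of the proliferation markers were called.

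Condensin and the SMC5/6 complex are built on SMC ATPases like those of cohesin. Of 18 such genes 17 were in the file and 16 were tested, of which 4 rose (against 5.1% of all genes) and 1 fell (against 4.65%), with a median log2 difference of 0.017. Ncapd2, Ncapg and Ncaph, the non-SMC subunits of condensin I, rose by 0.76, 0.71 and 0.63 on the log2 scale (limma adjusted p = 0.0351, 0.0424 and 0.0423). Ncapd2 was at 27.2 and 21.9 FPKM in CTRL and 41.5 and 42.4 in KO. Nsmce1, the ubiquitin ligase subunit of SMC5/6, rose by 0.61 (limma adjusted p = 0.0351), from 46.4 and 40.9 FPKM in CTRL to 64.9 and 68.9 in KO.

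Smc4, an ATPase shared by both condensins, moved the other way from the genes that rose. Smc4 was at 213 and 202 FPKM in CTRL and 148 and 167 in KO, and fell by 0.40 on the log2 scale (limma adjusted p = 0.0441). Slf2, which links SMC5/6 to DNA damage, was next lowest at -0.30 (limma adjusted p = 0.0625). Smc2, the other ATPase of both condensins, did not fall with Smc4. It was at 12.2 and 9.94 FPKM in CTRL and 14.53 and 14.50 in KO, with KO clear above CTRL. Its log2 difference of 0.37 did not pass the threshold (limma adjusted p = 0.0820). None of these 5 calls held with 1 library left out, that of Smc4 was lost with the trend with exon length removed or without limma's variance trend, and 2 of the 4 that rose were called without the latter.

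**Figure D4:**
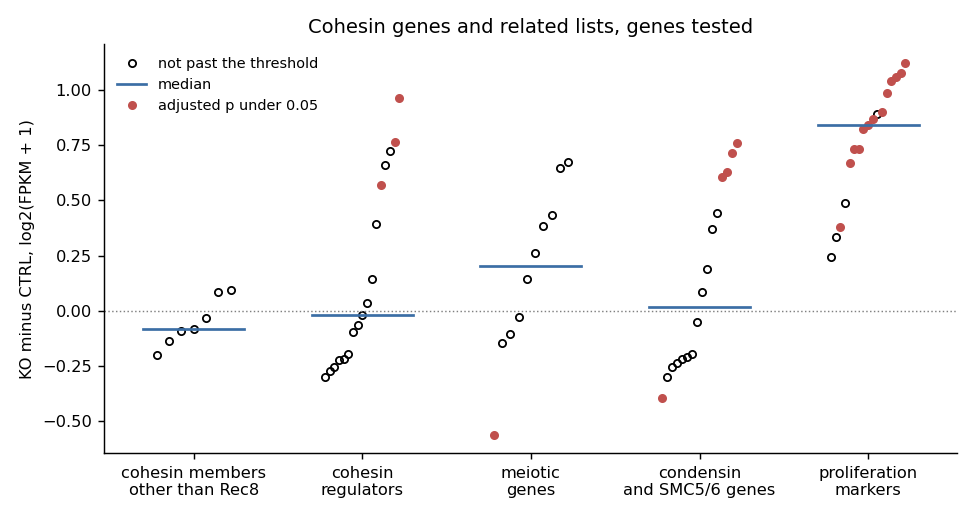
KO minus CTRL on the log2(FPKM + 1) scale (y axis) for each gene tested of 5 lists, with genes past the threshold in red, others open, and a blue line at the median of the list. The 7 cohesin genes other than Rec8 lie between -0.20 and 0.09 with no gene past the threshold, while 13 of 17 proliferation markers are past it around a median of 0.84.

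Rec8 was also read beside other genes of the meiotic programme, of which 46 were listed and 40 were in the file. Only 10 passed the filter, and the other 30 reached at most 0.735 FPKM, with 2 of them, Meikin and Spata22, at 0 in all 4 libraries. Sycp1, Sycp2 and Sycp3, which build the synaptonemal complex on the axis that REC8 organises, stayed at or below 0.299 FPKM, and Stra8, the inducer of meiotic entry, stayed at or below 0.0419 FPKM. Rec8 in CTRL was thus above all but Sun1 of the 40, at 21.0 and 23.5 FPKM in CTRL, a nuclear envelope protein that is not restricted to germ cells.

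Of the 10 meiotic genes tested, none rose (against 5.1% of all genes) and 1 fell (against 4.65%), with a median log2 difference of 0.20. The count of 0 that rose became 1 with each of 3 other scalings, without limma's variance trend and with robust eBayes, and 2 with limma-voom on the recovered reads. By unadjusted p, 4 of the 10 were under 0.05, against 34.7% of all genes. Ythdc2, which encodes an RNA helicase needed for meiotic entry, fell by 0.56 on the log2 scale (limma adjusted p = 0.0424), from 5.28 and 4.66 FPKM in CTRL to 3.21 and 2.88 in KO. Its call did not hold with 1 library left out or with the trend with exon length removed, and its mean level was under the stricter filter of 5 FPKM.

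The highest differences were those of Hsf2bp and Msh5. Hsf2bp, a partner of BRCA2 in meiotic recombination, was at 0.957 and 0.695 FPKM in CTRL and 2.30 and 1.55 in KO, a log2 difference of 0.67 (limma adjusted p = 0.0716). Msh5, a MutS homologue of meiotic crossovers, was at 1.53 and 1.10 FPKM in CTRL and 2.54 and 2.67 in KO, a log2 difference of 0.65 (limma adjusted p = 0.0509). Sun1 was second lowest at -0.14 (limma adjusted p = 0.327). No other meiotic gene that passed the filter was near the -1.45 of Rec8, the value on which Rec8 was selected. Genes as low in CTRL as Hsf2bp and Msh5 could not have fallen that far on the log2(FPKM + 1) scale, so the comparison does not set Rec8 apart from them.

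The genes beside Rec8 on chromosome 14 were read to see whether its neighbourhood moved with it. Within 50 kb of Rec8, 15 other protein-coding genes are annotated, 14 were in the file and 13 were tested. Of the 13, 1 rose (against 5.1% of all genes) and none fell, and the median log2 difference was 0.017. Ipo4, an importin gene that ends 4 bases from the end of Rec8 on the opposite strand, was at 17.1 and 18.03 FPKM in CTRL and 14.7 and 14.2 in KO, a log2 difference of -0.26 (limma adjusted p = 0.0636). Irf9, a transcription factor of interferon signalling and the nearest gene on the other side, overlapped between groups, with a log2 difference of 0.10 (limma adjusted p = 0.361).

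Psme2, which encodes a subunit of the interferon-induced proteasome activator, was the gene that rose. Psme2 was at 158 and 150 FPKM in CTRL and 187 and 198 in KO, a log2 difference of 0.32 (limma adjusted p = 0.0424). Its partner Psme1 was at 344 and 341 FPKM in CTRL and 403 and 438 in KO, a log2 difference of 0.29 that missed the threshold (limma adjusted p = 0.0517). Tssk4, a kinase gene of the testis, had the lowest difference of the neighbours at -0.48 (limma adjusted p = 0.0945), from 2.49 and 2.32 FPKM in CTRL and 1.18 and 1.73 in KO.

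The other 8 genes tested were Dcaf11, Emc9, Rnf31, Tm9sf1, Mdp1, Nedd8, Gmpr2 and Tinf2. Their log2 differences ran from -0.21 for Mdp1 to 0.23 for Rnf31, and none passed the threshold. Fitm1 lay below the filter, with at most 3 reads in a library. Of the 13, all 6 that lie before Rec8 had a difference above 0, and 6 of the 7 that lie after it had one below 0. Whether the sides differ was not tested. The call of Psme2 did not hold with 1 library left out.

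The genes whose levels followed those of Rec8 most closely were found by the Euclidean distance between log2(FPKM + 1) values centred on each gene's mean over the 4 libraries. With 4 libraries this measure follows mostly the difference between genotypes and that between the KO libraries. The nearest was Prrt1, a gene of a synaptic membrane protein, at a distance of 0.296, where the centred profile of Rec8 itself has a length of 1.56. Prrt1 was at 6.52 and 8.87 FPKM in CTRL and 2.68 and 1.68 in KO. It too was lower in KO 2 than in KO 1 and higher in CTRL 2 than in CTRL 1.

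After it came Ighv11-2 (0.433), an immunoglobulin variable gene, Traj37 (0.444), a T cell receptor joining segment, and the small RNA genes Mir684-1 (0.452) and Snora44 (0.476). The latter 2 and Traj37 are short genes whose FPKM rested on 2 to 41 reads per library. Ighv11-2 rested on at most 30 reads and was at 0 in KO 2, and Prrt1 rested on 55 to 283 reads per library.

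RNA of other cell types differed between the libraries and is given beside Rec8 for that reason. Summed FPKM of 8 B cell markers was 930 and 667 in CTRL and 1296 and 1199 in KO, most of it Ighm. Of the 7 tested, 0 passed the threshold, against 9.75% of all genes, and all 7 had a log2 difference above 0. By unadjusted p, 4 of the 7 were under 0.05, against 34.7% of all genes. In 4, both KO libraries were above both CTRL libraries, against 29%. Summed FPKM of 9 myeloid markers was 212 and 129 in CTRL and 277 and 103 in KO, and that of 5 plasma cell markers was 47.5 and 20.5 in CTRL and 57.3 and 27.1 in KO. Both sums, and that of the B cell markers, were higher in replicate 1 than in replicate 2 of each genotype. Rec8 was at 7.89 and 8.89 FPKM in CTRL and 3.53 and 1.61 in KO.

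Of the other lists, 5 of 6 erythroid markers were in the file and summed to 22.7 and 4.16 FPKM in CTRL and 38.5 and 11.4 in KO. Of these, 3 were tested and none was called, against 9.75% of all genes. Summed FPKM of 4 natural killer cell markers was 4.05 and 3.49 in CTRL and 2.77 and 2.996 in KO, and that of 5 dendritic cell markers was 3.07 and 2.15 in CTRL and 3.16 and 2.36 in KO. Of 2 CD8 T cell markers, Cd8a was at most 0.326 FPKM. The other, Cd8b1, was at 8.33 and 11.2 FPKM in CTRL and 10.3 and 11.1 in KO. Markers at 0 included S100a8 in CTRL 2 and Hbb-bs in all but KO 1. Summed FPKM of 5 T cell markers was 1598 and 1672 in CTRL and 1489 and 1572 in KO. The part of these cells in the values of Rec8 was not tested.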

How the data were processed

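RNA-seq of splenic Treg cells gave 2 libraries per genotype. Per the submitters' processing notes, the authors mapped the 150 bp read pairs to mm10 with HISAT2 2.2.1 and counted reads with featureCounts 2.0.1, using edgeR 3.34.0 for their comparison. The deposited values were FPKM for 24087 genes, made by the authors, with columns named WT read as CTRL. Use of strand was not given in the sources used here.

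The 11399 genes that reached an FPKM of 1 in 2 or more libraries were compared on log2(FPKM + 1), pseudocount 1, with limma 3.58.1 (R 4.3.3; lmFit, eBayes with trend; two-sided; Benjamini-Hochberg over all genes tested; threshold 0.05). The log2(FPKM + 1) scale understates changes of weakly expressed genes. Depth was taken from whole-number steps of FPKM between libraries, and its scale from 430 genes whose length matched GENCODE vM21 on GRCm38. The lengths behind the FPKM were computed back from that depth. They can differ from the exon lengths of vM21, as for Rec8 with 2055 against 2935 bases. Lengths came out whole within 0.02 bases for 99.9% of the 19888 genes above 0. Of all genes, 24062 were matched to GENCODE.

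All 10 cohesin genes, Setd2, and protein-coding genes within 50 kb of Rec8 were named. From the lists of cohesin regulators, meiotic genes and condensin and SMC5/6 genes, those past the threshold and the 2 highest and 2 lowest were named, with Mki67 and called proliferation markers and the 5 genes nearest Rec8. Other genes named were chosen after their values were seen. The members and lists were chosen with earlier results of these data known. The procedure was tested on simulated data. Python 3.11.15 was used otherwise. Alternatives were other pseudocounts, filters, scalings, variance models, recovered reads with limma-voom, removal of the trend with exon length, the replicate number as a block, and leaving out each library. The values of 1 gene are not reported here.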

Additional observations from a re-analysis of the deposited data

How the results depend on the processing

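The log2 difference of Rec8 kept its direction in all 15 alternatives, from -1.85 to -1.05 with 1 library left out and from -1.82 to -1.40 otherwise. Because Rec8 was selected on its difference in these same libraries, the kept direction is a description and carries no test. Other filters, other variance models and the block cannot change a difference of means. With both KO libraries below both CTRL libraries, leaving out 1 library could not turn the sign either. None of the other cohesin genes passed the threshold in any alternative. The sign of Rad21 turned with CTRL 2 left out (-0.0034, and 0.19 at the other extreme of leaving out a library). That of Stag1 turned with the trend with exon length removed (0.071) and with KO 2 left out (0.011, against -0.077 at the lowest). The mean share of Rec8 among the kleisins in CTRL moved from 10.5% to 6.25% with reads in place of FPKM, since reads are not scaled for length.

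Over all genes, 581 were higher and 530 lower in KO. These became 0 and 0 with every gene above 0 tested, 968 and 805 with the replicate number as a block, and 905 and 1021 with limma-voom. They became 315 higher without the variance trend and 321 lower with the trend with exon length removed. Leaving out 1 library gave 0 to 1 higher and 0 to 1 lower, with 1 group then at 1 library, assumed to vary like the other. The causes were not tested. Same-numbered libraries had deviations from their group means with r = 0.342 and rho = 0.055 across genes, which are not independent replicates. With 2 pairs, the labels give same-numbered samples no more than a number in common. Summed FPKM of B cell, myeloid and plasma cell markers was higher in replicate 1 than in replicate 2 of both genotypes, and that of T cell markers was lower. The block, which cannot change a difference of means here, left that of Rec8 at -1.45, and it changed no call among the other cohesin genes. With limma-voom 5 cohesin regulators were higher and 2 lower in KO, against 3 and 0, and the block gave 5 regulators and 2 meiotic genes higher, against 3 and 0.

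With 2 libraries per group, the limits are the spread between pools and, for Smc1b and Stag3, 14 to 50 reads per library. Differences within the printed intervals were not detectable.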
